A study of Mus musculus with 12 samples.

Results

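Klf2, Klf3, Klf4, Klf6, Klf7, Klf10 and Klf13 encode 7 members of the Kruppel-like factor (KLF) family of transcription factors, and their RNA levels were followed in regulatory T cells (Tregs) from pancreatic islets and from lymph nodes. The 7 genes were taken by symbol out of 23361 symbols in the deposited gene table, and all 7 were among the 10868 that passed a filter (10 or more rescaled counts in 3 or more libraries). They were chosen because Klf6 was seen to be higher in islet libraries, so their islet and lymph node levels are described below without a test, and tests are given only for the comparison between genotypes. RNA was sequenced from mouse Tregs, the Foxp3-expressing CD4 T cells that restrain immune responses, in a model of autoimmune diabetes. There were 4 groups of 3 libraries, namely Lag3-deficient islet, Wt (wild-type) islet, Lag3-deficient NDL and Wt NDL, where NDL stands for non-draining lymph node. The genotype is given in the labels only as Lag3 or Wt, and strain, age, the nature of the Lag3 alteration, any promoter driving it, pooling of animals and the sorting of the cells are not stated in the labels used here. Lag3 encodes an inhibitory receptor that binds MHC class II. The libraries of each group are called 1a, 2 and 1b, since the column headers give 2 columns of each group the number 1, and values per library follow in that order throughout. Nothing in the labels says that replicates came from separate animals, so p-values measure no more than the variation among these samples, and that may be technical.

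The Kruppel-like factors are zinc-finger proteins that bind GC-rich and CACCC sequences and activate or repress other genes. In T cells KLF2 is known for keeping resting cells quiescent and recirculating, since it activates genes such as S1pr1, a receptor gene that lets a cell leave lymphoid tissue. Its own gene is induced by FOXO1 and by the MEK5, ERK5 and MEF2 cascade, and is shut down after stimulation of the antigen receptor. KLF6 is known as a factor whose gene responds rapidly to activation, injury and inflammatory signals in many cell types.

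Promoter sequences were held for 6 of the 7 genes, all but Klf10. Those of 3 genes are shown, because Klf2 had overlapping levels in the 2 tissues while Klf6 and Klf4 were the 2 members whose islet libraries all lay above their NDL libraries. Each is RefSeq sequence of GRCm38.p6, 220 bases long, from 250 to 31 bases before the gene's RefSeq start, which is not the GENCODE start given with each gene below, written in the direction of transcription. Capitals mark matches to 1 motif per gene on either strand, and the motifs were chosen after the expression values were known. In the Klf2 window, chr8:72318812-72319031 on the plus strand, capitals mark the MEF2 core TAAATTTA, matched once with its first base 117 bases before the RefSeq start.
Klf2: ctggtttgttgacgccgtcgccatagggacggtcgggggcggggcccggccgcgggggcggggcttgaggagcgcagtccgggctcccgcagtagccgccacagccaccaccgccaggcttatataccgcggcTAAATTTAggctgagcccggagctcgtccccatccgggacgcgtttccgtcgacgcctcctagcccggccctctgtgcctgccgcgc
In the Klf6 window, chr13:5861239-5861458 on the plus strand, capitals mark the CCAAT box (CCAAT), matched 4 times.
Klf6: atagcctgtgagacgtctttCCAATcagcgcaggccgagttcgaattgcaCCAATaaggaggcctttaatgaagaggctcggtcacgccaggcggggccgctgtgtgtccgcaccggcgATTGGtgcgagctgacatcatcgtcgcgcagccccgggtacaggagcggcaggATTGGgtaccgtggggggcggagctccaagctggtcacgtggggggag
In the Klf4 window, chr4:55532506-55532725 on the minus strand, capitals mark the GC box (GGGCGG), matched 4 times, with 2 of the matches sharing 1 base.
Klf4: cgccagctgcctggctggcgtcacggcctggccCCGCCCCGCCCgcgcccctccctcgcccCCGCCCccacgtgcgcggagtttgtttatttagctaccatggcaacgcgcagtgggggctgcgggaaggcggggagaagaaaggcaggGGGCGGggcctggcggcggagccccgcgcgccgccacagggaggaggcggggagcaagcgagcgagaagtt
Of 32851 promoter windows of the same length, 0.444% held the exact string TAAATTTA, 28.5% this GC box and 10187 windows a CCAAT box. The string TAAATTTA was found in none of the other 5 windows. No other spelling of a MEF2 site was searched, so these values do not give how common MEF2 sites are. The Klf3 window held 6 GC boxes and 5 CACCC boxes (CACCC), the Klf7 window 1 GC box and 3 CACCC boxes and the Klf13 window 1 GC box and 2 CCAAT boxes, where 47.8% of all windows held a CACCC box. The Klf7 window, chr1:64121420-64121639, lay inside the GENCODE gene. The Klf3 window, chr5:64803271-64803490, ran past the GENCODE start into the gene. GC content ran from 60.0% (Klf7) to 79.1% (Klf3), with 71.4% for Klf2, 63.2% for Klf6 and 74.5% for Klf4. The Klf4 and Klf6 windows each held 1 E-box (CACGTG), present in 5.01% of all windows. Neither a FOXO element (GTAAACA), nor a heat shock pair (GAANNTTC), nor a cyclic AMP element (TGACGTCA) occurred in the 6 windows, against 2.81%, 5.73% and 1.14% of all windows. A match is a string of letters, and no binding was measured.

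The libraries as a whole set some limits. Every column of the table sums to between 15232498 and 15370098 rescaled counts, so sequencing depth is unknown and levels are given as CPM after scaling by trimmed means. Lag3 itself was listed at 1, 0 and 0 rescaled counts in Lag3-deficient islet libraries and at 40, 48 and 120 in Wt islet libraries, and at 1, 0 and 3 in Lag3-deficient NDL against 2, 5 and 6 in Wt NDL libraries. The ribosomal RNA locus Rn45s took 1.26 to 1.68% of the 4 columns called 1b and 0.149 to 0.571% of the other 8, and Lag3-deficient islet library 2 had 927 tested genes at 0. The 8 T cell and Treg markers summed to 6302 to 8892 CPM in Lag3-deficient islets, 6276 to 6707 CPM in Wt islets, 4080 to 5938 CPM in Lag3-deficient NDL and 4483 to 5583 CPM in Wt NDL, with Foxp3 above 300 CPM in every library. Much of the higher islet sums was Ctla4, at 2254 to 3288 CPM in Lag3-deficient and 1981 to 2493 CPM in Wt islets. In NDL Ctla4 was at 251 to 383 CPM in Lag3-deficient and 362 to 551 CPM in Wt cells. Foxp3 did not follow, at 302 to 471 CPM in Lag3-deficient and 314 to 429 CPM in Wt islets. Its NDL range was 323 to 595 CPM in Lag3-deficient and 443 to 702 CPM in Wt cells. Exocrine pancreas markers summed to 45.4 to 429.7 CPM in Lag3-deficient islets and 117 to 2289 CPM in Wt islets, against at most 0.388 CPM in any NDL library. B cell markers reached 299 CPM in Lag3-deficient islets, 207 CPM in Wt islets, 96.4 CPM in Lag3-deficient NDL and 121 CPM in Wt NDL, with Pax5 at 0 throughout. CD8 and NK markers summed to 107 to 125 CPM in Lag3-deficient islets, 35.0 to 80.8 CPM in Wt islets, 10.48 to 69.1 CPM in Lag3-deficient NDL and 0.587 to 26.9 CPM in Wt NDL. In islets most of this was the granzyme gene Gzmb, at 110, 102 and 97.2 CPM in Lag3-deficient and 26.7, 52.6 and 79.6 CPM in Wt libraries. Cd8a was highest in Lag3-deficient islet library 2, at 22.1 CPM. The part of these cells in the values below was not tested.

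Klf6 (chromosome 13, 5861482 to 5870394, plus strand, GRCm38) was the abundant member that separated the tissues. Its level was 916, 1210.4 and 427 CPM in Lag3-deficient islet libraries, against 129.8, 138 and 20.2 CPM in Lag3-deficient NDL libraries. In Wt islet libraries it was 564, 435 and 302 CPM, against 141, 142 and 71.3 CPM in Wt NDL libraries. All 6 islet libraries lay above all 6 NDL libraries, and library 1b was the lowest of its group in all 4 groups. The difference between islet and NDL was 3.42 ± 0.61 in Lag3-deficient cells and 1.89 ± 0.61 in Wt cells, on the scale of log2(CPM + 1) with its SE, where the median over all 10868 genes was -0.07 and 0.04. Without Lag3-deficient NDL library 1b, the lowest of the 12, the Lag3-deficient value was 2.53. In bulk RNA, fewer cells of a type and less RNA per cell cannot be told apart.

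Klf2 (chromosome 8, 72319033 to 72321656, plus strand) had overlapping levels in the 2 tissues. Its level was 1001, 449.6 and 518 CPM in Lag3-deficient islet libraries, against 219.6, 437 and 531 CPM in Lag3-deficient NDL libraries. Wt islet libraries held 614, 349 and 368 CPM, against 303, 428 and 480.02 CPM in Wt NDL libraries. In both genotypes library 1a was the highest of the islet group and the lowest of the NDL group, so the islet and NDL ranges overlapped. The islet minus NDL difference was 0.73 ± 0.42 in Lag3-deficient cells and 0.11 ± 0.42 in Wt cells. Over the 6 libraries of a tissue the highest level was 2.87 times the lowest in islets and 2.42 times in NDL, the narrowest range of the 7 genes in islets. Endothelial cells also transcribe Klf2, and the 9 endothelial and stromal markers summed to 26.3, 22.4 and 159 CPM in Lag3-deficient islets, 24.8, 27.0 and 5.05 CPM in Wt islets, 57.3, 49.6 and 26.6 CPM in Lag3-deficient NDL and 50.5, 122 and 7.12 CPM in Wt NDL libraries. Most of the NDL sums was Pecam1, at 57.3, 49.2 and 26.2 CPM in Lag3-deficient and 50.2, 121 and 5.94 CPM in Wt libraries. Most of the sum in Lag3-deficient islet library 1b was the stromal genes Dcn (70.5 CPM) and Col3a1 (47.6 CPM). The endothelial cadherin gene Cdh5 was at or below 1.26 CPM in every library, and the endothelial growth factor receptor gene Kdr reached 15.06 CPM in Lag3-deficient islet library 1b and 3.41 CPM in Wt islet library 1a. The part of endothelial cells in the Klf2 level was not tested.

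**Figure D1:**
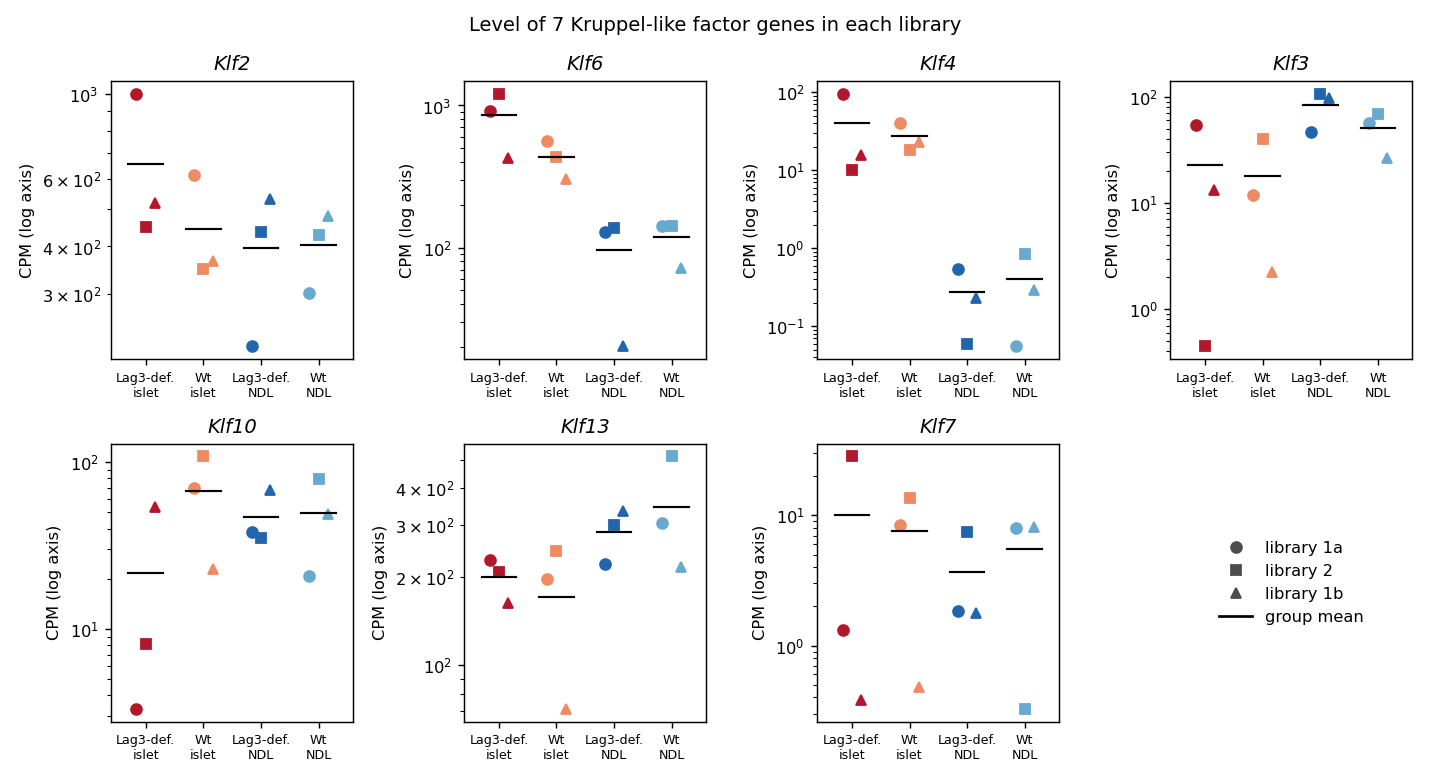
Level of each of the 7 genes in every library, in CPM on a log axis that differs between panels, with a marker shape for libraries and a horizontal line at the mean of each group of 3. Klf6 and Klf4 are the panels in which all islet points lie above all NDL points, and Klf2 spans 219.6 to 1001 CPM with both tissues mixed.

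The balance of Klf6 to Klf2 was read within each library, which leaves out the scaling between libraries. The log2 ratio of Klf6 to Klf2 was -0.13, 1.43 and -0.28 in Lag3-deficient islet libraries and -0.12, 0.32 and -0.28 in Wt islet libraries. It was -0.75, -1.66 and -4.65 in Lag3-deficient NDL libraries and -1.09, -1.58 and -2.73 in Wt NDL libraries. Islet libraries thus had ratios near or above 0 and NDL libraries had ratios of -0.75 or lower, a tissue difference that follows from the choice of the genes and carries no test. Between genotypes the ratio averaged 0.34 ± 0.94 in Lag3-deficient islets and -0.03 ± 0.31 in Wt islets (SD, n = 3 each), and an exact two-sided permutation test gave p = 0.8. In NDL it averaged -2.35 ± 2.04 in Lag3-deficient and -1.80 ± 0.84 in Wt cells (SD, n = 3 each), with an exact permutation p = 0.8. The adjusted p over these 2 comparisons was 0.8 for each in the exact permutation test, and 3 against 3 libraries cannot go below 0.1. The islet difference of 0.37 rested on Lag3-deficient library 2, and was -0.17 without it. The NDL difference of -0.55 rested on Lag3-deficient library 1b, and was 0.60 without it.

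Klf4 (chromosome 4, 55527143 to 55532466, minus strand), known in myeloid cells as a driver of monocyte differentiation, in endothelium as a partner of KLF2 and in T cells as a brake on proliferation, was close to absent from NDL. It measured 96.2, 10.2 and 15.6 CPM in Lag3-deficient islet libraries, against 0.536, 0.0591 and 0.233 CPM in Lag3-deficient NDL libraries. It measured 40.6, 18.0 and 23.4 CPM in Wt islet libraries, against 0.0551, 0.846 and 0.293 CPM in Wt NDL libraries. The NDL values stand for 11, 1 and 3 rescaled counts in Lag3-deficient and 1, 13 and 4 in Wt libraries, so Klf4 passed the filter through its islet libraries and had to differ between the tissues. The islet minus NDL difference of log2(CPM + 1) was 4.38 ± 1.23 in Lag3-deficient and 4.30 ± 1.23 in Wt cells, and its size depended on the pseudocount, at 5.68 and 5.52 with 0.25 and 2.83 and 2.77 with 4. Islet minus NDL libraries without overlap made up 2 of the 7 genes in each genotype, namely Klf4 and Klf6, where 13.4% of all tested genes had non-overlapping libraries in Lag3-deficient cells and 14.3% in Wt cells; the genes were chosen on this contrast and nothing is read from the count.

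Markers of cells that transcribe Klf4 were set beside it. The 9 myeloid markers in the table summed to 232 to 417 CPM in Lag3-deficient islets, 272 to 482 CPM in Wt islets, 215 to 372 CPM in Lag3-deficient NDL and 160 to 265 CPM in Wt NDL, most of it from Cst3. The monocyte and macrophage gene Lyz2 measured 19.9, 2.30 and 0.128 CPM in Lag3-deficient islet libraries and 92.6, 0.533 and 19.7 CPM in Wt islet libraries. It measured 0, 33.4 and 0 CPM in Lag3-deficient NDL libraries and 14.1, 0 and 0 CPM in Wt NDL libraries. Tyrobp, a signalling adaptor gene of myeloid and NK cells, measured 19.8, 0 and 11.4 CPM in Lag3-deficient and 0.707, 7.60 and 1.98 CPM in Wt islet libraries, against at most 0.22 CPM in any NDL library. Fcer1g, an Fc receptor chain gene, had a maximum of 1.67 CPM in Lag3-deficient islets and of 14.4 CPM in Wt islets, against at most 0.13 CPM in NDL libraries. Csf1r, the macrophage growth factor receptor gene, reached 31.2 CPM in Wt islet library 1b and was at or below 2.89 CPM in the other 11 libraries. The share of Klf4 RNA from cells other than Tregs was not tested.

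**Figure D2:**
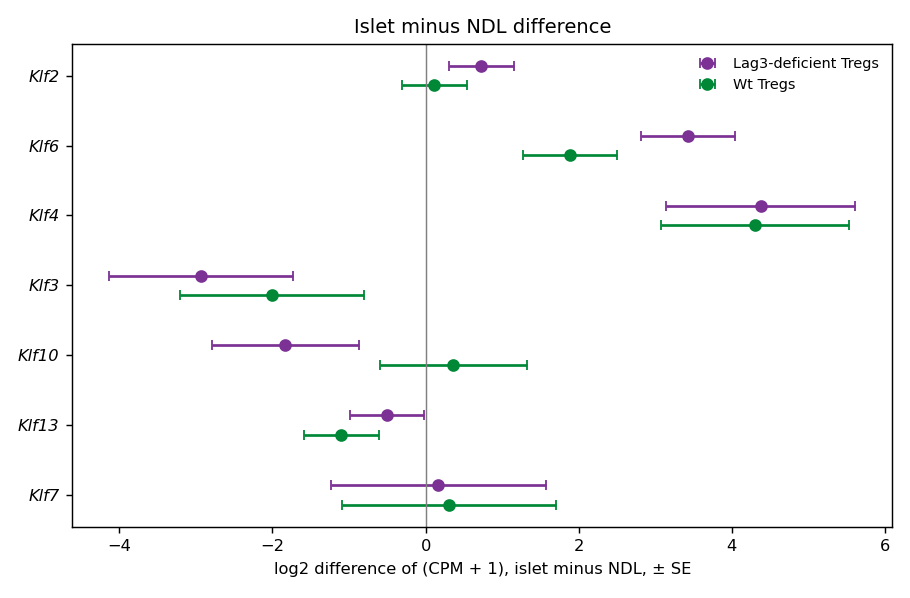
Islet minus NDL difference of log2(CPM + 1) for the 7 genes, Lag3-deficient cells above Wt cells in each pair, with bars for the SE of the limma fit over 12 libraries. Klf4 and Klf6 lie above 0 in both genotypes, and Klf3 (-2.93 and -2.01) and Klf13 (-0.50 and -1.10) lie below 0.

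Klf3 and Klf13 stood on the other side of 0. Klf3 (chromosome 5, 64803388 to 64832901, plus strand) encodes a repressor that recruits the CtBP corepressors. It measured 54.6, 0.446 and 13.3 CPM in Lag3-deficient islet libraries, against 47.1, 107 and 97.4 CPM in Lag3-deficient NDL libraries. It measured 12.02, 39.8 and 2.25 CPM in Wt islet libraries, against 56.7, 69.2 and 26.6 CPM in Wt NDL libraries. One islet library of each genotype lay within the NDL range, and the highest islet level was 122.5 times the lowest, the widest range of the 7 genes. Klf13 (chromosome 7, 63886351 to 63938915, minus strand), known in T cells as an activator of the late chemokine gene Ccl5, measured 228, 208 and 163 CPM in Lag3-deficient islet libraries and 196, 245 and 71.0 CPM in Wt islet libraries. Its NDL libraries held 220.4, 299 and 334 CPM in Lag3-deficient and 305, 514 and 216 CPM in Wt cells. The islet minus NDL differences were -2.93 ± 1.198 in Lag3-deficient and -2.01 ± 1.198 in Wt cells for Klf3, and -0.50 ± 0.49 in Lag3-deficient and -1.10 ± 0.49 in Wt cells for Klf13.

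Klf10 and Klf7 overlapped between the tissues in both genotypes. Klf10 (chromosome 15, 38291463 to 38300706, minus strand) is induced by TGF-beta and is known in mouse T cells as an activator of Foxp3. Its level was 3.31, 8.10 and 53.6 CPM in Lag3-deficient islet libraries and 69.8, 108 and 22.8 CPM in Wt islet libraries. It was 37.9, 34.9 and 67.8 CPM in Lag3-deficient NDL and 20.9, 78.7 and 48.6 CPM in Wt NDL libraries. The islet minus NDL difference was -1.83 ± 0.96 in Lag3-deficient cells and 0.36 ± 0.96 in Wt cells. Klf7 (chromosome 1, 64029447 to 64122282, minus strand), studied mostly in neurons, was the least abundant member in islets per length, with 1.32, 28.4 and 0.385 CPM in Lag3-deficient and 8.42, 13.7 and 0.477 CPM in Wt islet libraries. It held 1.85, 7.39 and 1.79 CPM in Lag3-deficient and 8.05, 0.325 and 8.07 CPM in Wt NDL libraries, and its islet minus NDL differences of 0.17 and 0.30 were far inside their SE of 1.40.

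Levels of different genes were compared as CPM per kilobase of exon. In Lag3-deficient islets the order was Klf2 (355 ± 163, SD, n = 3), Klf6 (201 ± 93.7), Klf13 (29.9 ± 4.97), Klf4 (13.4 ± 15.9), Klf10 (5.66 ± 7.25), Klf3 (4.23 ± 5.26) and Klf7 (1.25 ± 1.98). In Wt islets it was Klf2 (240.1 ± 80.0), Klf6 (103 ± 30.98), Klf13 (25.6 ± 13.4), Klf10 (17.5 ± 11.2), Klf4 (9.03 ± 3.90), Klf3 (3.35 ± 3.62) and Klf7 (0.935 ± 0.825). Klf2 and Klf6 overlapped between libraries in Lag3-deficient islets (243 to 542 against 101.01 to 286 CPM per kilobase) and did not in Wt islets (189 to 332 against 71.5 to 133). In islets of both genotypes the libraries of Klf13 lay below all of Klf6, and those of every pair of neighbours from Klf13 downwards overlapped.

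In NDL, Klf13 took the second place per length. The order in Lag3-deficient NDL was Klf2 (214 ± 86.4), Klf13 (42.7 ± 8.74), Klf6 (22.7 ± 15.6), Klf3 (15.6 ± 5.99), Klf10 (12.2 ± 4.74), Klf7 (0.457 ± 0.400) and Klf4 (0.0912 ± 0.0797). In Wt NDL it was Klf2 (218 ± 49.4), Klf13 (51.8 ± 22.9), Klf6 (28.0 ± 9.65), Klf10 (12.9 ± 7.55), Klf3 (9.43 ± 4.06), Klf7 (0.681 ± 0.555) and Klf4 (0.131 ± 0.134). Klf2 lay above Klf13 in every NDL library of both genotypes. The libraries of Klf13 and Klf6 overlapped in Wt NDL (32.5 to 77.1 against 16.9 to 33.7) and did not in Lag3-deficient NDL (33.1 to 50.1 against 4.78 to 32.7). Further down, Klf6, Klf3 and Klf10 in Lag3-deficient NDL, and Klf6, Klf10 and Klf3 in Wt NDL, each overlapped with the next of the 3.

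Between genotypes none of the 7 genes passed the threshold of an adjusted p under 0.05, in limma with Benjamini-Hochberg adjustment over all 10868 genes. The same held for every tested gene (0% in islets, 0% in NDL), with 597 genes in islets and 314 in NDL at an unadjusted p under 0.05 and 0 genes past the threshold with voom weights in either tissue. Non-overlapping libraries of Lag3-deficient and Wt cells were found for 0 of the 7 KLF genes in either tissue, against 9.4% of genes in islets and 7.92% in NDL. The question was whether loss of Lag3, whose gene was detected mainly in Wt islet libraries, went with another level of these factors.

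Klf6 averaged 851 ± 396 CPM in Lag3-deficient and 434 ± 131 CPM in Wt islets (SD, n = 3 each). The log2 difference was 0.89 ± 0.61 with a 95% interval of -0.39 to 2.17 (limma adjusted p = 0.969), an interval that holds 0. In NDL it averaged 96.1 ± 65.8 CPM in Lag3-deficient and 118 ± 40.8 CPM in Wt cells, a difference of -0.65 ± 0.61 (interval -1.92 to 0.63, limma adjusted p = 1). The genotype effect in islets minus that in NDL was 1.54 ± 0.87 (interval -0.27 to 3.34, limma adjusted p = 0.998), in a comparison where 0% of genes passed and 444 had an unadjusted p under 0.05. Without Lag3-deficient NDL library 1b, which held 20.2 CPM, this difference of differences was 0.66 and the NDL difference was 0.25.

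Klf2 averaged 656 ± 301 CPM in Lag3-deficient and 443 ± 148 CPM in Wt islets, a log2 difference of 0.52 ± 0.42 (interval -0.36 to 1.41, limma adjusted p = 0.973). In NDL it averaged 396 ± 160 CPM in Lag3-deficient and 403 ± 91.1 CPM in Wt cells, a difference of -0.09 ± 0.42 (interval -0.98 to 0.79). Klf13 differed by 0.39 ± 0.49 in islets (interval -0.62 to 1.40) and by -0.21 ± 0.49 in NDL. These intervals were the narrowest of the 7 genes. A p that misses the threshold does not show that the genotypes had the same level.

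Klf10 was the member whose islet difference was largest for its SE. It averaged 21.7 ± 27.8 CPM in Lag3-deficient and 66.9 ± 42.8 CPM in Wt islets, a log2 difference of -2.14 ± 0.96 (interval -4.14 to -0.14, limma adjusted p = 0.884). Lag3-deficient libraries 1a and 2 lay below all 3 Wt islet libraries, while Lag3-deficient library 1b, at 53.6 CPM, lay above Wt library 1b. In NDL the Klf10 difference was 0.05 ± 0.96, and the difference between the tissues was -2.19 ± 1.36 (limma adjusted p = 0.998). Without Lag3-deficient islet library 1b the islet difference was -3.18, with a limma adjusted p of 0.353, and without library 1a it was -1.32. Klf3, Klf4 and Klf7 differed in islets by -0.20 ± 1.198, -0.03 ± 1.23 and -0.37 ± 1.40, and in NDL by 0.73 ± 1.198, -0.11 ± 1.23 and -0.24 ± 1.40, and the sign of each islet value changed with the scaling, the pseudocount, the input table or the left-out library.

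**Figure D3:**
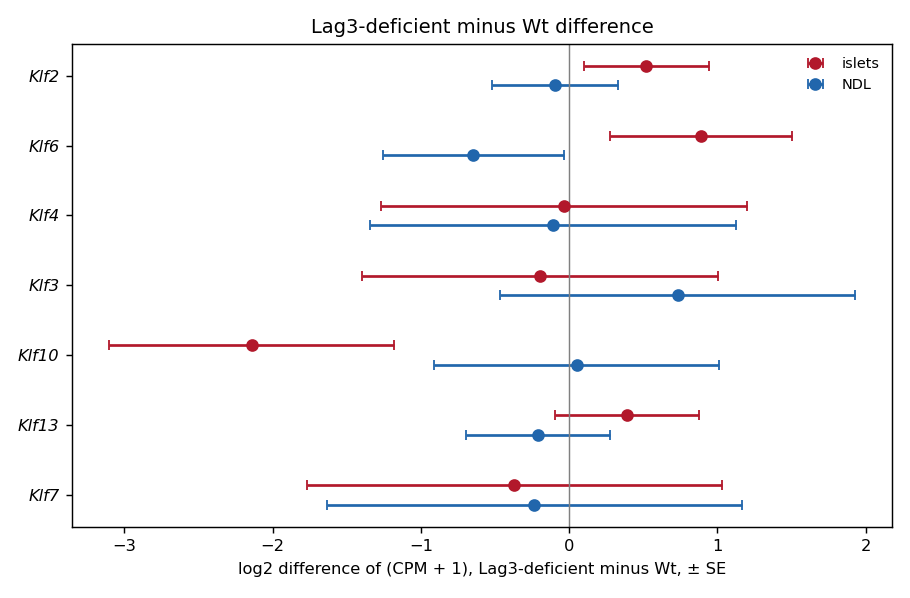
Lag3-deficient minus Wt difference of log2(CPM + 1) for the 7 genes, islets above NDL in each pair, with bars for the SE of the limma fit over 12 libraries. Klf10 in islets (-2.14 ± 0.96) lies farthest from 0, and the bars of Klf3, Klf4 and Klf7 cross 0 in both tissues.

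Genes with a profile like that of Klf6 were sought by the Pearson correlation of log2(CPM + 1) over the 12 libraries, among 5415 genes with a mean of at least 4 on that scale, predicted genes left out. The 5 most alike were Ppp1r15a (r = 0.955), which restarts translation after stress, the endoplasmic reticulum chaperone gene Hsp90b1 (0.929), the cytosolic chaperone gene Hsp90ab1 (0.926), Tnfaip3 (0.915), which encodes the NF-kB inhibitor A20, and the AP-1 gene Junb (0.913). The 12 libraries fall into 2 tissues, and within a tissue r was lower for every 1 of the 5, at 0.521 to 0.738 over 6 islet libraries and 0.734 to 0.900 over 6 NDL libraries. Ppp1r15a ran from 70.4 to 396 CPM in islet libraries, against 0.466 to 21.6 CPM in NDL libraries, and Tnfaip3 from 98.4 to 774 CPM in islet libraries, against 0 to 70.7 CPM in NDL libraries. Hsp90b1 ran from 972 to 1707.5 CPM in islet libraries, against 287 to 611 CPM in NDL libraries. These correlations describe libraries that share their scaling and their tissue.

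The genes most like Klf2 followed a pattern that did not separate the tissues. They were the ubiquitin ligase gene Arih2 (r = 0.844), the T cell receptor complex gene Cd3g (0.825), the mitochondrial ribosome gene Mrpl51 (0.818), the apoptosis and transcription regulator gene Ccar1 (0.815) and the ribonuclease inhibitor gene Rnh1 (0.807). Within islets r ran from 0.677 for Rnh1 to 0.942 for Arih2, and within NDL from 0.522 for Cd3g to 0.909 for Rnh1. Cd3g measured 1553 to 2482 CPM in islet libraries, against 1309 to 1715 CPM in NDL libraries. In Lag3-deficient cells alone Mrpl51 and Rnh1 did not overlap. Mrpl51 measured 119 to 170 CPM in these islets, against 30.2 to 115 CPM in NDL. Rnh1 measured 156 to 241 CPM in these islets, against 64.5 to 145 CPM in NDL.

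A list of 10 genes of lymph node homing, egress and the naive state, tied to KLF2 and FOXO1 in resting T cells, was counted next. Whether KLF2 acts on each of them was not tested. In Lag3-deficient cells 0 of 10 passed between islets and NDL in either direction, where 0.166% of all tested genes were higher and 0.0092% were lower past the threshold, and 4 of 10 differences were positive with a median of -0.26. In Wt cells 0 of 10 rose and 1 fell in islets, where 0.212% of all genes were higher and 0.0092% lower, and 1 of 10 was positive with a median of -1.14. The gene that fell in Wt islets was Bach2, a repressor of effector differentiation, with 11.8, 5.27 and 4.30 CPM in Wt islet libraries, against 114, 204 and 96.2 CPM in Wt NDL libraries (log2 difference -4.13 ± 0.83, limma adjusted p = 0.0404). This call was lost when any 1 of the 3 Wt islet libraries, the 3 Wt NDL libraries or Lag3-deficient NDL libraries 1a and 2 was left out (adjusted p 0.0774 to 0.263), and also without the filter, with voom weights, with 2 of the other scalings, without the columns called 1b and with a term for them in the model. In Lag3-deficient cells Bach2 measured 15.29, 10.996 and 35.6 CPM in islets, against 119, 165.5 and 35.0 CPM in NDL (-2.22 ± 0.83, limma adjusted p = 0.399).

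The other genes of this list had smaller differences that did not pass. Ccr7, the receptor that guides T cells into lymph nodes, measured 181 ± 32.5 CPM in Lag3-deficient islets, against 368 ± 63.3 CPM in Lag3-deficient NDL (SD, n = 3 each). In Wt cells it measured 146 ± 29.8 CPM in islets, against 327 ± 87.0 CPM in NDL (-1.14 ± 0.40, limma adjusted p = 0.415). Its islet and NDL libraries did not overlap in either genotype. The same held for 13.4% of all tested genes in Lag3-deficient and 14.3% in Wt cells. The chromatin organiser gene Satb1 differed between islets and NDL by -0.42 ± 0.44 in Lag3-deficient and -1.60 ± 0.44 in Wt cells (limma adjusted p = 0.207 in Wt), and the T cell factor gene Lef1 by -0.88 ± 0.46 and -1.49 ± 0.46. S1pr1, a known KLF2 target, is given as values chosen after they were seen. It measured 129 ± 31.3 CPM in Lag3-deficient islets and 204 ± 52.2 CPM in Lag3-deficient NDL, and 154 ± 41.8 CPM in Wt islets and 313 ± 93.3 CPM in Wt NDL. Klf2 itself had 656 ± 301 CPM in Lag3-deficient islets and 396 ± 160 CPM in Lag3-deficient NDL, and 443 ± 148 CPM in Wt islets and 403 ± 91.1 CPM in Wt NDL. Between genotypes 0 of the 10 passed in islets or NDL.

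**Figure D4:**
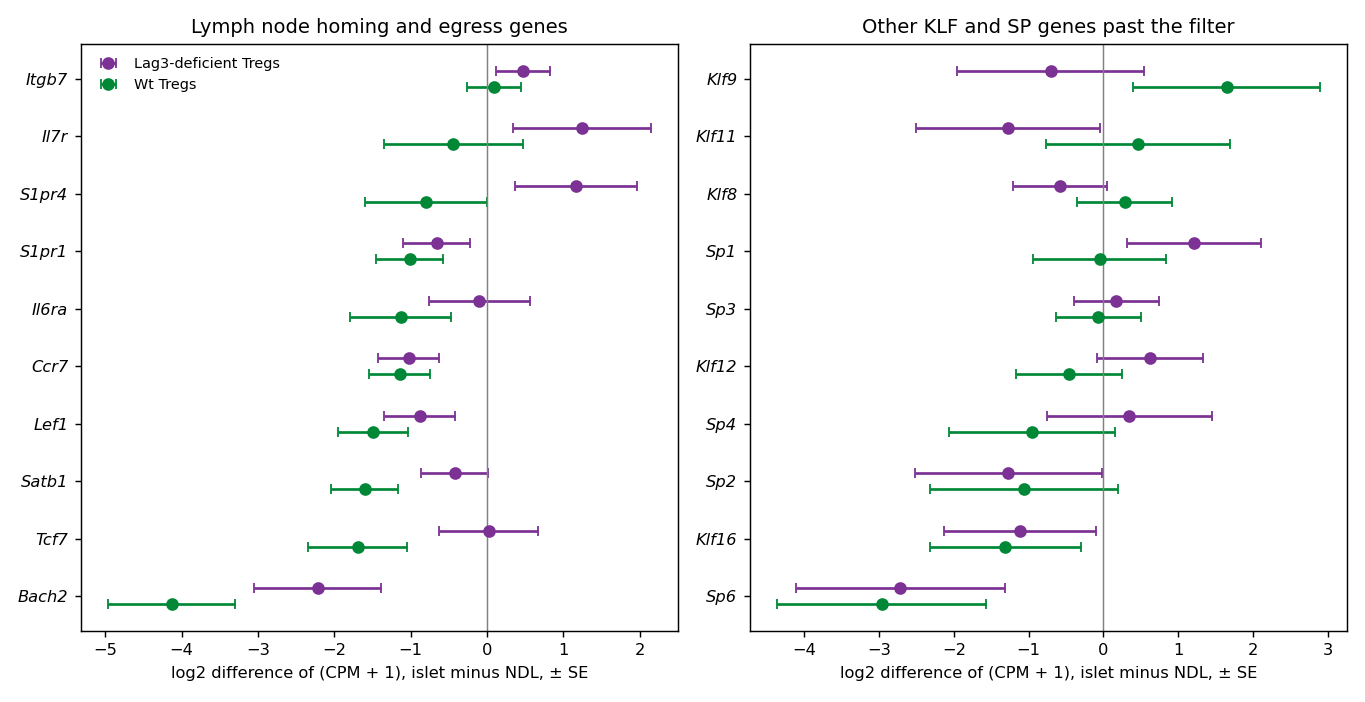
Islet minus NDL difference of log2(CPM + 1) with its SE for 10 homing and egress genes (left) and for the 10 other KLF and SP genes past the filter (right), Lag3-deficient cells above Wt cells in each pair. Bach2 in Wt cells (-4.13 ± 0.83) is the 1 value of these that passed the adjusted threshold.

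Inducers and degraders of KLF2 were read in the same way. Of 12 genes 11 were tested, and 0 rose and 0 fell between islets and NDL in either genotype, where, as above, 0.166% of all genes were higher in Lag3-deficient and 0.212% in Wt cells, so that 0 calls set no list of this size apart (medians 0.02 in Lag3-deficient and -0.50 in Wt cells) or between genotypes. Foxo1, the forkhead factor gene, measured 349 ± 76.0 CPM in Lag3-deficient islets and 321 ± 51.9 CPM in Lag3-deficient NDL, and 253 ± 39.6 CPM in Wt islets and 369 ± 119 CPM in Wt NDL (SD, n = 3 each). Map2k5, which encodes MEK5, differed between islets and NDL by 0.02 ± 1.52 in Lag3-deficient and -2.95 ± 1.52 in Wt cells. Mef2c and Mef2d, 2 of the factors for the motif capitalised in the Klf2 promoter, were at or below 10.4 CPM in every library and differed in Wt cells by 2.44 ± 0.89 (limma adjusted p = 0.44) and 2.51 ± 0.84 (limma adjusted p = 0.356). Mef2d had at most 4 rescaled counts in Lag3-deficient and 3 in Wt NDL libraries. It passed the filter through islets and had to differ, so its p-value is no independent test. Mef2c had at most 6 rescaled counts in Wt NDL libraries, below the filter minimum. In Lag3-deficient cells Mef2c averaged 0.834 CPM in islets and 2.61 CPM in NDL, and Mef2d 2.17 and 0.124 CPM. Mef2a, named after its values were seen, averaged 11.3 CPM in Wt islets and 11.3 CPM in Wt NDL. In Lag3-deficient cells it averaged 4.77 CPM in islets and 4.18 CPM in NDL.

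The TGF-beta pathway, upstream of Klf10, and the cofactors of the family were counted in the same way. Of 11 TGF-beta genes 0 passed in either tissue comparison (medians -0.30 in Lag3-deficient and -0.11 in Wt cells) or between genotypes. The repressor gene Ski measured 37.4 ± 38.0 CPM in Lag3-deficient islets and 178 ± 37.7 CPM in Lag3-deficient NDL, a difference of -2.89 ± 0.73 (limma adjusted p = 0.132), and 58.4 ± 20.2 CPM in Wt islets and 177 ± 28.1 CPM in Wt NDL (-1.62 ± 0.73). Tgif1, another repressor of TGF-beta responses, differed by 1.28 ± 0.65 in Lag3-deficient and 1.51 ± 0.65 in Wt cells. Skil differed by 0.09 ± 0.55 and 0.49 ± 0.55, and Smad4, the common partner of the receptor-activated SMAD proteins, by 0.29 ± 0.67 and -0.64 ± 0.67. Of 9 tested cofactor genes 0 passed in any comparison. The deacetylase gene Hdac1 measured 83.5 ± 29.9 CPM in Lag3-deficient islets and 134 ± 21.7 CPM in Lag3-deficient NDL, and 48.2 ± 10.9 CPM in Wt islets and 125 ± 4.57 CPM in Wt NDL (limma adjusted p = 0.475 in Wt). The acetyltransferase gene Kat2b had 195, 154 and 84.2 CPM in Lag3-deficient islet libraries and 59.3, 69.7 and 5.87 CPM in Wt islet libraries (2.16 ± 0.81, limma adjusted p = 0.863). These libraries did not overlap, which held for 9.4% of all tested genes between genotypes in islets. Hdac2 and Sin3a differed between islets and NDL in Wt cells by -0.84 ± 0.64 and 1.82 ± 0.95.

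Quiescence genes and the rest of the KLF and SP family also had counts that, at these shares of all genes, say nothing particular about them. Of 10 tested quiescence genes 0 passed between tissues (medians 0.77 in Lag3-deficient and 0.25 in Wt cells) or between genotypes. Cdkn1a, the cell cycle inhibitor gene that KLF4 and KLF6 are known to activate, measured 64.6, 4.38 and 10.8 CPM in Lag3-deficient islet libraries, against 1.46, 1.48 and 13.3 CPM in Lag3-deficient NDL libraries. In Wt cells it measured 6.49, 41.9 and 41.7 CPM in islets, against 0, 0.130 and 0 CPM in NDL (4.52 ± 1.36, limma adjusted p = 0.275). The antiproliferative genes Tob2 and Btg2 differed by 1.07 ± 0.52 and -0.05 ± 0.49 in Lag3-deficient and 0.40 ± 0.52 and 0.39 ± 0.49 in Wt cells, and Tsc1, a brake on mTORC1 signalling, by -0.53 ± 1.01 and -0.91 ± 1.01. Of the 19 other KLF and SP genes 10 passed the filter, and 0 passed the test between tissues or genotypes (tissue medians -0.64 in Lag3-deficient and -0.26 in Wt cells). Sp6 had 8.23 ± 7.20 CPM in Lag3-deficient islets and 39.0 ± 12.5 CPM in Lag3-deficient NDL, and 2.04 ± 3.31 CPM in Wt islets and 21.5 ± 19.1 CPM in Wt NDL (limma adjusted p = 0.636 in Wt). Klf9, Klf16 and Sp4 differed in Wt cells by 1.65 ± 1.25, -1.31 ± 1.01 and -0.95 ± 1.11.

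Immediate early and heat shock genes, which rise in cells during activation and also while tissue is digested and handled, were read beside Klf6, since some of them were far higher in islet libraries. Of 20 tested genes 6 rose and 0 fell in islets in Lag3-deficient cells (median 1.73) and 6 rose and 0 fell in Wt cells (median 2.25), where 0.166% of all genes were higher in Lag3-deficient and 0.212% in Wt cells, and 0 passed between genotypes in islets or NDL. The heat shock genes Hspa1a and Hspa1b, the AP-1 gene Fos, the phosphatase gene Dusp1 and the cochaperone gene Dnajb1 rose in both, with Junb as the sixth in Lag3-deficient and Jun as the sixth in Wt cells. Fos measured 464.5, 649 and 324 CPM in Lag3-deficient islet libraries, against 4.44, 2.60 and 6.29 CPM in Lag3-deficient NDL libraries (6.47 ± 0.76, limma adjusted p = 0.000124). It measured 289, 377 and 463 CPM in Wt islet libraries, against 2.65, 4.55 and 0.293 CPM in Wt NDL libraries (6.96 ± 0.76, limma adjusted p = 5.01e-05). Hspa1a lay between 727 and 1301 CPM in Lag3-deficient islets and between 568 and 1026 CPM in Wt islets, and was listed at 0 in 4 of 6 NDL libraries with at most 1.71 CPM in the others. Hspa1a and Hspa1b each reached 10 rescaled counts in 6 islet libraries and 1 NDL library, so they passed the filter through islets and had to differ, which leaves 4 other calls in each genotype. The uncalled genes Fosb, Nr4a2, Atf3 and Ier3 also passed through islets, and they enter the medians above. They reached 10 rescaled counts in 6, 6, 4 and 3 islet libraries, against 1, 2, 0 and 0 NDL libraries. The list was read because of its islet levels. Its counts and p-values between tissues therefore describe those levels and are no independent test. Of the 20 tested genes, islet minus NDL differences were positive for 19 in Lag3-deficient and 16 in Wt cells. Dusp2, a gene named after its values were seen, was not higher in islets. It had 110 ± 68.9 CPM in Lag3-deficient islets and 125 ± 83.4 CPM in Lag3-deficient NDL. In Wt cells Dusp2 had 83.1 ± 57.8 CPM in islets and 116 ± 24.5 CPM in NDL. Hspa1a and Hspa1b are near-identical copies whose reads can be split between them.

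Calls of some of these genes depended on 1 library or on the processing. In Lag3-deficient cells Dusp1 (3.39 ± 0.55, limma adjusted p = 0.00802) was not called without Lag3-deficient islet library 2 (0.0707). Dnajb1 (2.72 ± 0.51, limma adjusted p = 0.024) was not called without any 1 of Lag3-deficient islet libraries 1a and 2 and Lag3-deficient NDL libraries 1a and 2 (0.0998 to 0.149). Junb (3.26 ± 0.65, limma adjusted p = 0.0441) was not called without any 1 of the 6 islet libraries or the 3 Lag3-deficient NDL libraries (0.057 to 0.131). Over all 23 alternatives Junb was lost in 16, among them no filter, voom weights and both scalings over all genes and on column totals, with limma adjusted p-values of 0.031 to 0.136. In Wt cells Jun (6.36 ± 1.15, limma adjusted p = 0.0218) was not called without any 1 of the 3 Wt islet libraries or Wt NDL libraries 1a and 1b (0.0616 to 0.133). Without the filter neither Jun in Wt cells (0.0709) nor Dnajb1 in Lag3-deficient cells (0.179) was called. Over all 23 alternatives Dusp1 was lost in 2 and Dnajb1 in 6 in Lag3-deficient cells. Jun was lost in 7 in Wt cells, with its highest limma adjusted p, 0.169, without the columns called 1b.

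The summed level of the 22 genes on this list was 16327, 14509 and 12100 CPM in Lag3-deficient islet libraries and 13138, 11866 and 12592 CPM in Wt islet libraries. It was 2639, 3911 and 5542 CPM in Lag3-deficient NDL libraries and 3050.4, 3613 and 5735 CPM in Wt NDL libraries. Within NDL the 2 libraries called 1b had the highest sums and the lowest Klf6, at 20.2 CPM in Lag3-deficient and 71.3 CPM in Wt cells. Most of the sum was the chaperone gene Hspa8, with 4270.3 CPM in Lag3-deficient and 4794 CPM in Wt NDL library 1b. Without Hspa8 the sum was 622, 704 and 1272 CPM in Lag3-deficient and 644, 867 and 941 CPM in Wt NDL libraries, while Junb, at 8.39 CPM in Lag3-deficient NDL library 1b, was there at its lowest of the 12 libraries. In Wt NDL library 1b Junb was instead at its highest NDL level, 39.2 CPM. The 6 islet libraries had both higher sums and higher Klf6 than the 6 NDL libraries. The part of tissue handling in the islet level of Klf6 was not tested.

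**Figure D5:**
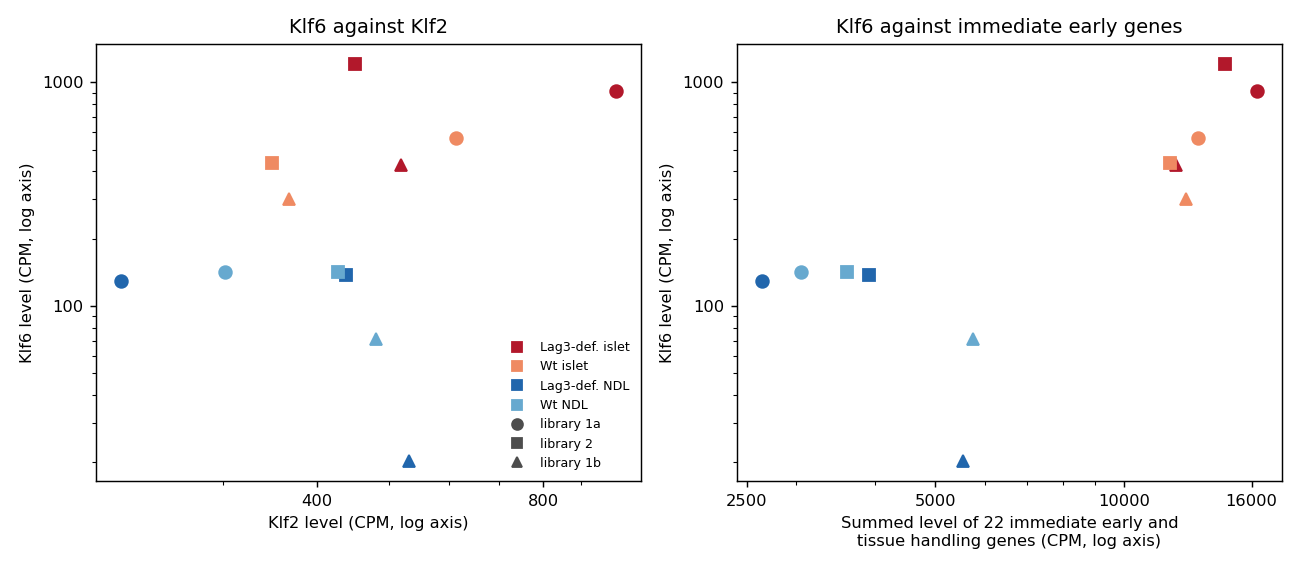
Klf6 level in each of the 12 libraries against the Klf2 level (left) and against the summed level of 22 immediate early and tissue handling genes (right), all in CPM on log axes, with colours for the 4 groups and shapes for libraries. On the right the islet libraries (11866 to 16327 CPM) and the NDL libraries (2639 to 5735 CPM) form separate clusters, and on the left Klf2 does not separate them.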

How the data were processed

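RNA from 12 mouse Treg libraries in 4 groups was analysed. The authors deposited 2 gene tables. As deposited by the authors, both hold a signal that was rescaled before deposit, the first as rescaled counts for 23361 symbols and the second, filtered to 10317 genes, with nearly equal distributions in all columns. The method of rescaling is not given in the sources used here. Per the submitters' processing notes, which give no versions, TopHat2, DESeq2 and mm10 were used. Columns were tied to groups by their headers, not to single samples.

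The first table was scaled by trimmed means of log ratios (30% of ratios and 5% of levels trimmed, over genes past the filter). Genes that reached 10 rescaled counts in 3 or more libraries were fitted in limma 3.58.1 (R 4.3.3) with a mean-variance trend on log2(CPM + 1), with 4 groups in 1 model. No count model was used, since the values are not raw counts. A fold on this scale understates the change of low genes. Adjustment was by Benjamini-Hochberg with a threshold of 0.05. The scripts were tested on simulated data. Exon lengths and positions come from GENCODE (GRCm38), promoters from RefSeq (GRCm38.p6).

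The members and lists were chosen with earlier results of these data known. Named were the 7 genes, up to 4 genes per list with the smallest p between islets and NDL in Wt cells or past the threshold, and 5 genes most like Klf2 and Klf6. Alternatives covered scaling, pseudocounts of 0.25 and 4, no filter, voom weights, the second table, the columns called 1b left out or given a term, header position as a block, and each library left out. 1 gene of the homing list is not reported here and was left out of its counts.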

Additional observations from a re-analysis of the deposited data

How the results depend on the processing

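The columns do not carry the replicate numbers of the sample titles, and columns with the same header position (1a, 2, 1b) deviated from their group means with correlations of -0.0894 to 0.161 over genes, so they are not taken as pairs. With this position as a replicate block, an alternative added after seeing the data, 15 genes passed between islets and NDL in Wt cells, 26 in Lag3-deficient cells and 0 between genotypes in islets or NDL. With a term for the 4 columns called 1b, also added later, 29 passed in Lag3-deficient cells, 16 in Wt cells and 0 between genotypes, and the SE of the Klf6 genotype differences was 0.44 (limma adjusted p = 0.842 in islets). Depth is unknown, so shallow libraries cannot be weighted, and 3 libraries a group limit what a genotype test can call. Genes past the threshold between islets and NDL in Lag3-deficient cells numbered 19 as reported, 7 without the filter, 31 from the second table, 32 without the columns called 1b and 11 to 38 with 1 library left out (11 without Lag3-deficient islet 2, 12 without Lag3-deficient NDL 1a or 2, 34 without Wt NDL 1b and 38 without Lag3-deficient islet 1b). In Wt cells they numbered 24, with 11 without the filter, 57 with voom weights, 10 without the columns called 1b and 9 to 30 with 1 library left out (9 without Wt islet 1a, 10 without Wt islet 1b or Wt NDL 1b, 11 without Wt NDL 1a, 13 without Wt NDL 2 and 15 without Lag3-deficient NDL 2). Between genotypes in islets 0 passed, and 0 to 5 with 1 library left out, with 5 without Lag3-deficient islet 1b. Compared with trimmed means over tested genes, scaling over all genes, added after seeing the data, moved the median over all genes in islets between genotypes to -0.22, and scaling on column totals moved that between islets and NDL in Lag3-deficient cells to -0.26.

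None of the 7 genes passed between genotypes in any alternative. The islet difference between genotypes changed sign for Klf3 with a pseudocount of 4 (0.0122), for Klf4 with median-of-ratios (RLE) factors (0.0284), a pseudocount of 4 (0.0157), the second table (0.23) and without the 1b columns (0.30), and for Klf7 with the second table (0.11). In NDL it changed sign for Klf7 with voom weights (0.0321) and without the 1b columns (0.52), for Klf10 without them (-0.16) and for the Klf6 to Klf2 ratio without them (0.13). The difference of differences changed sign for Klf4 with scaling over all genes (-0.0892), on column totals (-0.0558) and without the filter (-0.0892), and for Klf7 with a pseudocount of 4 (0.11) and the second table (0.31). With 1 library left out, islet differences ranged from -1.39 to 1.22 for Klf3, -0.95 to 0.57 for Klf4, -1.72 to 0.49 for Klf7, -0.12 to 0.74 for Klf13 and -0.17 to 0.68 for the ratio. NDL differences ranged from -0.35 to 0.30 for Klf2, -0.29 to 0.11 for Klf4, -1.11 to 0.25 for Klf6, -1.16 to 0.24 for Klf7, -0.45 to 0.48 for Klf10, -0.48 to 0.13 for Klf13 and -1.35 to 0.60 for the ratio. The difference of differences ranged from -2.14 to 0.47 for Klf3, -0.84 to 0.67 for Klf4 and -1.50 to 0.79 for Klf7. The cause of these changes was not tested.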
